A study of Mus musculus with 15 samples.

Results

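Ribosome biogenesis genes and Myc were followed as a group of 33 genes in mouse mammary epithelial organoids. The group was chosen by name: the 33 rows of the deposited count table whose gene name is Myc or one of 32 nucleolar and ribosome assembly factors, of 54456 rows in all. Earlier results of these data were known when the names were chosen, so counts of members are descriptions. All 33 passed the filter on low counts, which left 18140 genes for testing. The study asked about changes of cell state while mammary epithelium migrates as a group. The organoids came from wild-type (WT) mouse mammary gland and were placed next to beads that carried either FGF10, a growth factor that drives mammary epithelium to grow and move, or bovine serum albumin (BSA), an inert protein that served as the control. Both kinds of culture used DMEM/F12 medium with an insulin, transferrin and selenium supplement (ITS) an L-Ala-Gln supplement and a supplement labelled P/S, which all groups shared. RNA was taken from cultures with FGF10 beads for 36 h, BSA beads for 36 h, FGF10 beads for 72 h and BSA beads for 72 h, and from organoids at 0 h, with 3 libraries in each of the 5 groups. The titles of the FGF10 72 h libraries name the factor as FGF0, and their treatment label, which says FGF10, was followed. The labels do not give the age of the mice or say whether the libraries of a group are separate cultures, so p-values measure only the spread between these libraries. The BSA 72 h libraries carry the numbers 2_1, 2_2 and 3, and 2_1 and 2_2 may come from the same culture.

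A ribosome is built in the nucleolus. RNA polymerase I transcribes the precursor of the ribosomal RNAs, small nucleolar ribonucleoproteins (snoRNPs) of the box C/D and box H/ACA classes guide its chemical modification, and large sets of assembly factors cut and fold it into the small and the large subunit. Myc, a transcription factor that binds DNA together with Max, is known in many cell types as an activator of RNA polymerase I and of the genes for nucleolar proteins. In the mammary gland, Myc is known for its part in the growth of the ducts and alveoli, and the output of the nucleolus is known to track cell growth.

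The 250 bases upstream of the gene start are shown for 6 members, from RefSeq promoters on GRCm38.p6, printed in the direction of the gene. Ncl, Nop58 and Dkc1 are shown because they were the members that passed the test between FGF10 and BSA at 72 h. Gar1 is shown as 1 of several members called in 3 of the 4 cultured groups against 0 h, a reason that does not single it out. Nop2 was the only matched member with an E-box, and Rcl1 ran against the other members. Capitals mark the Myc and Max E-box CACGTG and the ETS core CCGGAA, which ETS family transcription factors bind, on either strand.
Ncl (chr1:86359456-86359705, minus strand): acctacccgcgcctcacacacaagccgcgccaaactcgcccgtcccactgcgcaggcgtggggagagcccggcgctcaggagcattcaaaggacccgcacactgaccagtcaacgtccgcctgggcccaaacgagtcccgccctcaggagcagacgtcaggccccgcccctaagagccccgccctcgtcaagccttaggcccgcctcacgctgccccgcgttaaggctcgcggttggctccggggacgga
Nop58 (chr1:59684756-59685005, plus strand): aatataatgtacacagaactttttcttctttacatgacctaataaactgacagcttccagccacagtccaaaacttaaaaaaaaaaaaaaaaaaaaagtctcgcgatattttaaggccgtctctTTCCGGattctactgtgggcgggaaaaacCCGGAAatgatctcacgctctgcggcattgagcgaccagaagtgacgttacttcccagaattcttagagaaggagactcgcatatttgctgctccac
Dkc1 (chrX:75095604-75095853, plus strand): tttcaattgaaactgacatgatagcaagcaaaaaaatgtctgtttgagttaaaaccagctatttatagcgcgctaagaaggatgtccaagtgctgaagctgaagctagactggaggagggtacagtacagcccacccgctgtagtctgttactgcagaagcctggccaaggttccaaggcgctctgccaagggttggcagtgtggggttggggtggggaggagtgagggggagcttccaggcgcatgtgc
Gar1 (chr3:129831397-129831646, minus strand): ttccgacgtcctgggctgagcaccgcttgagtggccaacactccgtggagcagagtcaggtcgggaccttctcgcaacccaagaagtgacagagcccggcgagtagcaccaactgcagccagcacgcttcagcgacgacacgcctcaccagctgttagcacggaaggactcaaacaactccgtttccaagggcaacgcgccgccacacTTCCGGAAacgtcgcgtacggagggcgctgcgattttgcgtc
Nop2 (chr6:125131633-125131882, plus strand): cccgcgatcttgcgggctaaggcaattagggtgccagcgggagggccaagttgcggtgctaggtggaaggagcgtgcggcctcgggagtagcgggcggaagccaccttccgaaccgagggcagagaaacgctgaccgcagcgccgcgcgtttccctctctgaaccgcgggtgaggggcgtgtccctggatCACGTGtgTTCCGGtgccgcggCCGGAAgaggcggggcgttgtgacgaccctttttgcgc
Rcl1 (chr19:29101125-29101374, plus strand): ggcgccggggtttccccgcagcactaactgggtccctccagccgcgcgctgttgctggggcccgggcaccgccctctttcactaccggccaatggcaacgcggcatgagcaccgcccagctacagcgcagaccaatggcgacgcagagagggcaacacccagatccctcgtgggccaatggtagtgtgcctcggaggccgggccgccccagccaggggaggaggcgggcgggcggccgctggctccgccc
Of the 33 members, 27 had a promoter in the RefSeq table, and Myc, Npm1, Fbl, Rrp12, Bop1 and Rrs1 did not match. The E-box CACGTG stood in 1 of the 27 matched members (3.7%), Nop2, at position -60 from the start, against 9.55% of the 11818 tested genes with a promoter. The ETS core CCGGAA, searched on both strands, stood in 9 of the 27 (33.3%), against 23.4% of those tested genes. In Gar1 the matches at -42 and -40 overlap as a palindrome, in Nop58 the matches lie at -126 and -97, and in Nop2 at -52 and -38. Nolc1, Nhp2, Heatr1, Tsr1, Bysl and Rrp9 held 1 match each. A match describes letters only, and the windows of Ncl, Dkc1 and Rcl1 held neither string.

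Levels are given as CPM, the counts of a gene scaled to the normalized library size. Libraries held 11965322 to 24261233 counted fragments. Summed over the 33 members, the level was 1998 to 2101 CPM at 0 h, 2827 to 3784 CPM in FGF10 36 h, 2489 to 2652 CPM in BSA 36 h, 2335 to 2822 CPM in FGF10 72 h and 1980 to 2011 CPM in BSA 72 h. A pair of libraries stood apart. FGF10 36 h replicate 4 had 1.11% mitochondrial counts, against 3.60% and 3.97% in the other FGF10 36 h libraries, and relative to the mean of those libraries it was 1.29 higher in Nhp2 and differed by -1.03 in Tsr1 on the log2 scale. 0 h replicate 1 had a summed level of 12 proliferation genes of 908 CPM, against 122 and 91.6 CPM in the other 0 h libraries. The epithelial markers Epcam, Cdh1, Krt8, Krt18, Krt5 and Krt14 were counted in every library, with a sum of 12600 CPM or more. Annotated exons of 18 members overlap exons of another gene, 16 of them on the opposite strand, and counting ignored strand. In these bulk samples, fewer cells of a type and less RNA per cell cannot be told apart.

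The members spanned a wide range of levels. Per kilobase of annotated exon and averaged over the 15 libraries, the small box H/ACA proteins Nop10 (230 CPM per kb) and Nhp2 (220 CPM per kb) were at the top, followed by Nop16 (55.4), Npm1 (40.5), Ncl (37.8) and Nop56 (36.1 CPM per kb). Myc stood at 31.4 CPM per kb. By this measure the large scaffold proteins of early assembly and the largest subunit of RNA polymerase I were at the bottom. Heatr1 had 1.67 and Utp20 1.54 CPM per kb, and Polr1a was lower still. The order depends on the annotated exon length, which was 10188 bases for Ncl and 1109 bases for Nop10. In CPM without this division, Ncl was the highest member, at 385 CPM. By group mean, 28 of the 33 members were highest in FGF10 36 h, 3 (Fbl, Tsr1 and Pes1) in BSA 36 h, and 2 (Myc and Rcl1) at 0 h. The lowest group mean was at 0 h for 18 members, in BSA 72 h for 13, in FGF10 72 h for Rrp1b and in BSA 36 h for Nop10. Neighbouring groups in these orders often overlapped in their libraries, as the comparisons show.

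**Figure D1:**
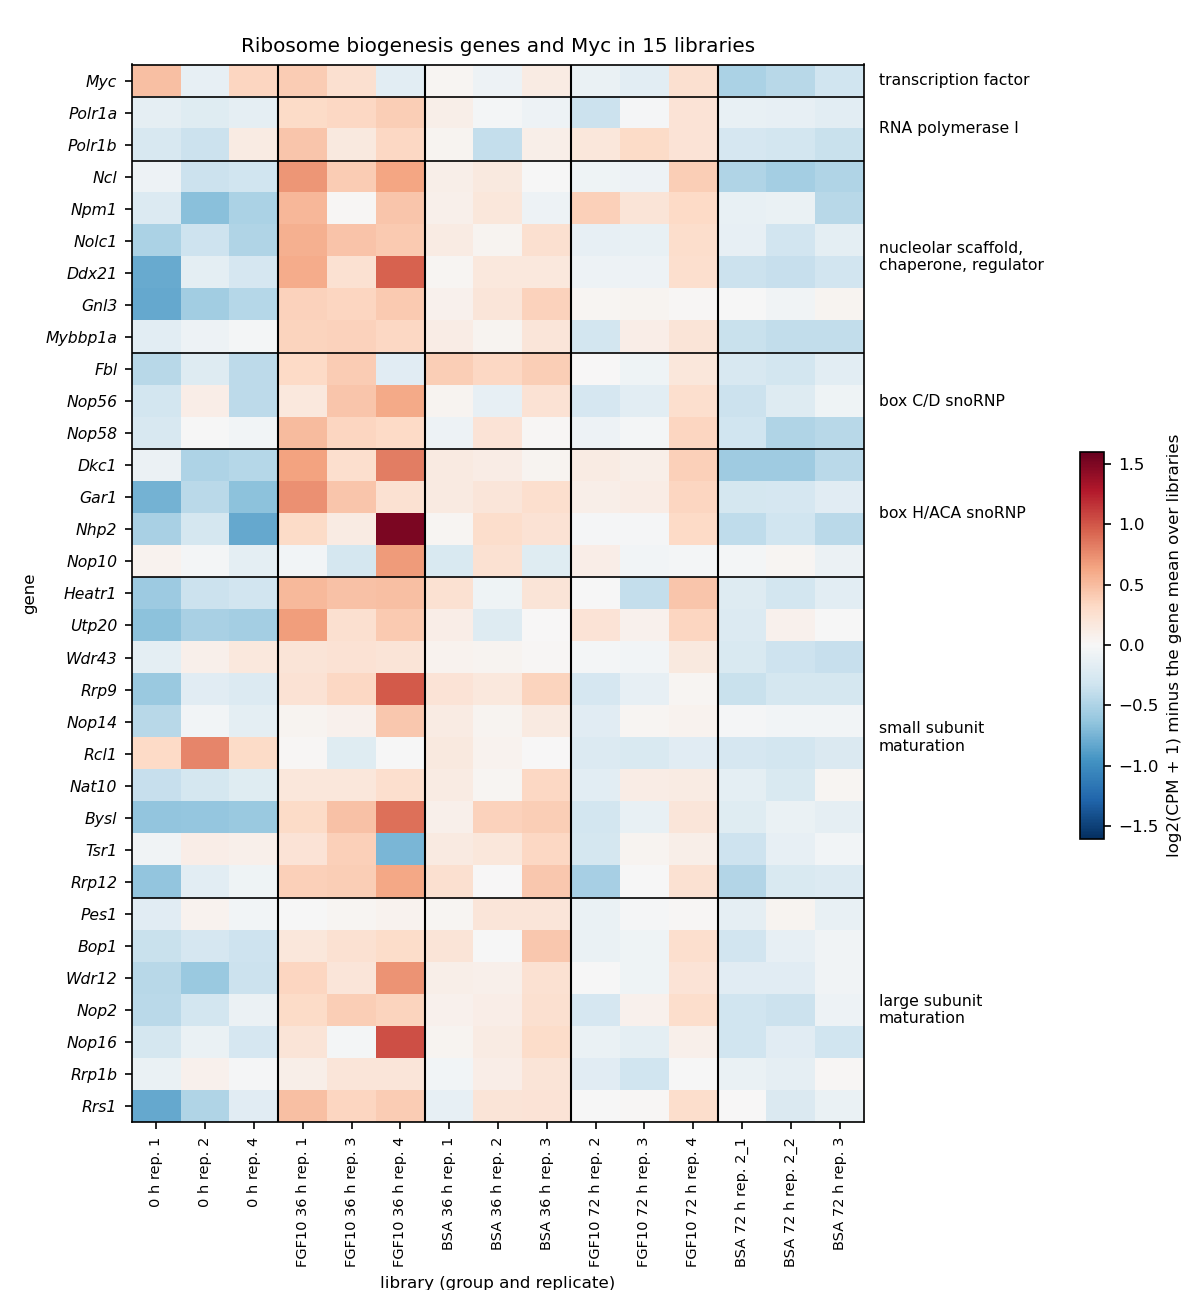
Level of each of the 33 genes (rows, by role) in each of the 15 libraries (columns, by group), as log2(CPM + 1) minus the mean of that gene over the libraries, red for higher and blue for lower. The FGF10 36 h libraries hold most of the deepest red, with Nhp2 in replicate 4 among it, and most 0 h and BSA 72 h cells are blue, except for Myc and Rcl1 at 0 h.

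Against 0 h, Myc itself did not rise as most other members did at 36 h. Its level was 117, 76.2 and 106 CPM at 0 h, 111, 99.8 and 74.2 CPM in FGF10 36 h, 85.6, 78.8 and 91.6 CPM in BSA 36 h, 77.4, 74.2 and 100 CPM in FGF10 72 h, and 58.7, 61.3 and 66.6 CPM in BSA 72 h. The BSA 72 h libraries lay below every other library, and the other 4 groups overlapped. The mean was 62.2 ± 4.03 CPM in BSA 72 h and 99.6 ± 20.97 CPM at 0 h (SD, n = 3 each). Against 0 h, Myc fell in BSA 72 h, by 0.68 ± 0.18 on the log2 scale (edgeR quasi-likelihood test, SE, adjusted p = 0.0113), while in FGF10 72 h the difference was -0.25 ± 0.18 (adjusted p = 0.315), in BSA 36 h -0.22 (adjusted p = 0.376) and in FGF10 36 h -0.07 (adjusted p = 0.788). Between FGF10 and BSA, Myc differed by 0.43 ± 0.18 at 72 h (adjusted p = 0.155), where the 3 FGF10 libraries were above the 3 BSA libraries, and by 0.16 ± 0.18 at 36 h (adjusted p = 0.67), where they overlapped. For 72 h against 36 h, Myc differed by -0.18 with FGF10 and by -0.46 with BSA, without passing. In these comparisons between cultured groups, Myc had the direction of most members. The fall in BSA 72 h against 0 h passed the test in all 24 alternative settings, with log2 differences of -0.84 to -0.52.

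The comparison of FGF10 with BSA beads at the same time asks what the growth factor adds to culture. At 72 h, 3 members rose with FGF10: the nucleolar scaffold Ncl, the box C/D scaffold Nop58 and the box H/ACA pseudouridine synthase Dkc1. That is 3 of 33, and over all tested genes 3.01% rose and 2.98% fell at an adjusted p under 0.05. No member fell, and 30 did not pass.

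Ncl, nucleolin, an abundant RNA-binding protein of the nucleolus, had 354, 351 and 487 CPM in FGF10 72 h, against 266, 255 and 266 CPM in BSA 72 h. All FGF10 libraries were above all BSA libraries, and replicate 4 was the highest. The log2 difference was 0.60 ± 0.15, a ratio of 1.51 (adjusted p = 0.0309). Annotated exons of Ncl overlap those of Mir3535, SNORD20 and Snora75 on the same strand.

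Dkc1, dyskerin, had 102, 99.9 and 122 CPM in FGF10 72 h and 62.4, 62.8 and 68.9 CPM in BSA 72 h. The groups did not overlap, and this was the largest difference among the members, 0.74 ± 0.15 on the log2 scale or a ratio of 1.67 (adjusted p = 0.0135). Annotated exons of Dkc1 overlap exons of Mpp1 on the opposite strand, and counting ignored strand.

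Nop58 had 98.1, 102 and 132 CPM in FGF10 72 h and 83.4, 74.0 and 76.3 CPM in BSA 72 h. The lowest FGF10 library was above the highest BSA library. The log2 difference was 0.51 ± 0.14, a ratio of 1.42 (adjusted p = 0.0423). Annotated exons of Nop58 overlap those of Gm26293 on the same strand.

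The other members at 72 h were mostly above BSA without passing. In all, 32 of 33 log2 differences were positive, with a median of 0.22 against -0.01 over all tested genes, and Rrp1b was the exception at -0.09 ± 0.11. Without FGF10 72 h replicate 4, 28 were positive and the median was 0.12. The libraries of the groups did not overlap for 15 members, all higher with FGF10, while 21.9% of all tested genes were higher without overlap. At an unadjusted p under 0.05, 9 members were higher, against 11.5% of all tested genes. Just outside the threshold were Polr1b, a core subunit of RNA polymerase I (0.58 ± 0.16, adjusted p = 0.0512), the histone and ribosome chaperone Npm1 (0.52 ± 0.16, adjusted p = 0.0646), Mybbp1a (0.41 ± 0.12, adjusted p = 0.0604) and the dyskerin partner Gar1 (0.44 ± 0.13, adjusted p = 0.0628). By role, the median log2 difference was 0.46 for box H/ACA proteins, 0.41 for the nucleolar scaffold and regulator proteins, 0.29 for box C/D proteins, 0.21 for large subunit factors and 0.18 for small subunit factors.

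The number called at 72 h moved with the fit. The DESeq2 Wald test called 8 members higher (5.31% of all genes it tested) and limma voom with sample weights called 12 (14% of all tested genes). Leaving out replicate 4 of FGF10 72 h left 0 calls, as did leaving out library 2_1 or library 2_2 of BSA 72 h. Over all tested genes, 88, 139 and 126 rose in these fits in that order, beside 546 in the main fit. Leaving out replicate 3 of either 72 h group left 1 call. Without FGF10 72 h replicate 3, 228 of 18773 tested genes rose, and without BSA 72 h replicate 3, 133 of 18703 rose. Leaving out replicate 4 of FGF10 36 h, which belongs to neither group, gave 9 calls, where 5.84% of all tested genes rose. Leaving out replicate 1 of the 0 h group gave 7, where 5.76% rose. With 2_1 and 2_2 summed as 1 library, 0 passed. FGF10 72 h replicate 4 was also the library of its group with most proliferation transcripts, and the members' median difference from the mean of the other FGF10 72 h libraries was 0.26 on the log2 scale.

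At 36 h, no member passed the test between FGF10 and BSA (edgeR, 0 of 33), while 0.954% of all tested genes rose and 1.39% fell. At an unadjusted p under 0.05, 11 members were higher and none lower, against 8.49% of all tested genes higher. DESeq2 called 3 higher (2.51% of all genes it tested) and limma voom with sample weights called 3 higher (3.8%). By both of these tests the 3 were Ncl, Dkc1 and Utp20. Without FGF10 36 h replicate 3, edgeR called 1 member higher, Dkc1, where 259 of 18752 tested genes rose. The log2 difference was positive for 29 of 33 members, with a median of 0.29 against 0.00 over all tested genes. With the replicate block 27 were positive and the median was 0.17, and with limma voom and sample weights 24 were positive and the median was 0.15. The libraries did not overlap for 13 members, all higher with FGF10, against 9.88% of all tested genes.

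Ncl had 604, 495 and 578 CPM in FGF10 36 h and 396, 415 and 370 CPM in BSA 36 h, without overlap, a log2 difference of 0.51 ± 0.15 (adjusted p = 0.0882). Utp20, a scaffold of small subunit assembly, had 24.7, 18.3 and 20.6 CPM in FGF10 36 h and 16.5, 13 and 15.3 CPM in BSA 36 h, also without overlap, a difference of 0.50 ± 0.15 (adjusted p = 0.0901). Dkc1 had 146, 113 and 165 CPM in FGF10 36 h and 103, 101 and 96.0 CPM in BSA 36 h, a difference of 0.50 ± 0.15 (adjusted p = 0.0915). All 3 were higher in every FGF10 library, and none passed.

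Several of the higher values at 36 h rested on FGF10 36 h replicate 4. Nhp2, a small RNA-binding protein of the box H/ACA core, had 288, 255 and 665 CPM in FGF10 36 h and 239, 284 and 275 CPM in BSA 36 h, and its log2 difference of 0.60 ± 0.28 became 0.03 without replicate 4. Rrp9, a protein of the snoRNP that guides early cleavage of the precursor, had 45.3, 48.6 and 76.9 CPM in FGF10 36 h and 45.02, 43.5 and 49.7 CPM in BSA 36 h, and its difference of 0.31 became 0.03. Nop16 had 115, 97.0 and 203 CPM in FGF10 36 h and 102, 109 and 122 CPM in BSA 36 h, and its difference of 0.32 became -0.06. The direction also turned for Nop10 (0.22 to -0.12), Nop14 (0.09 to -0.05), Bop1 (0.01 to -0.01) and Tsr1 (-0.19 to 0.09), so that 26 rather than 29 members were positive without that library, with a median of 0.18. For Fbl, the box C/D methyltransferase, replicate 4 held 22.6 CPM beside 32.4 and 34.4 CPM in the other FGF10 36 h libraries and 34.1, 32.6 and 34.02 CPM in BSA 36 h, and the difference of -0.17 became -0.01.

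**Figure D2:**
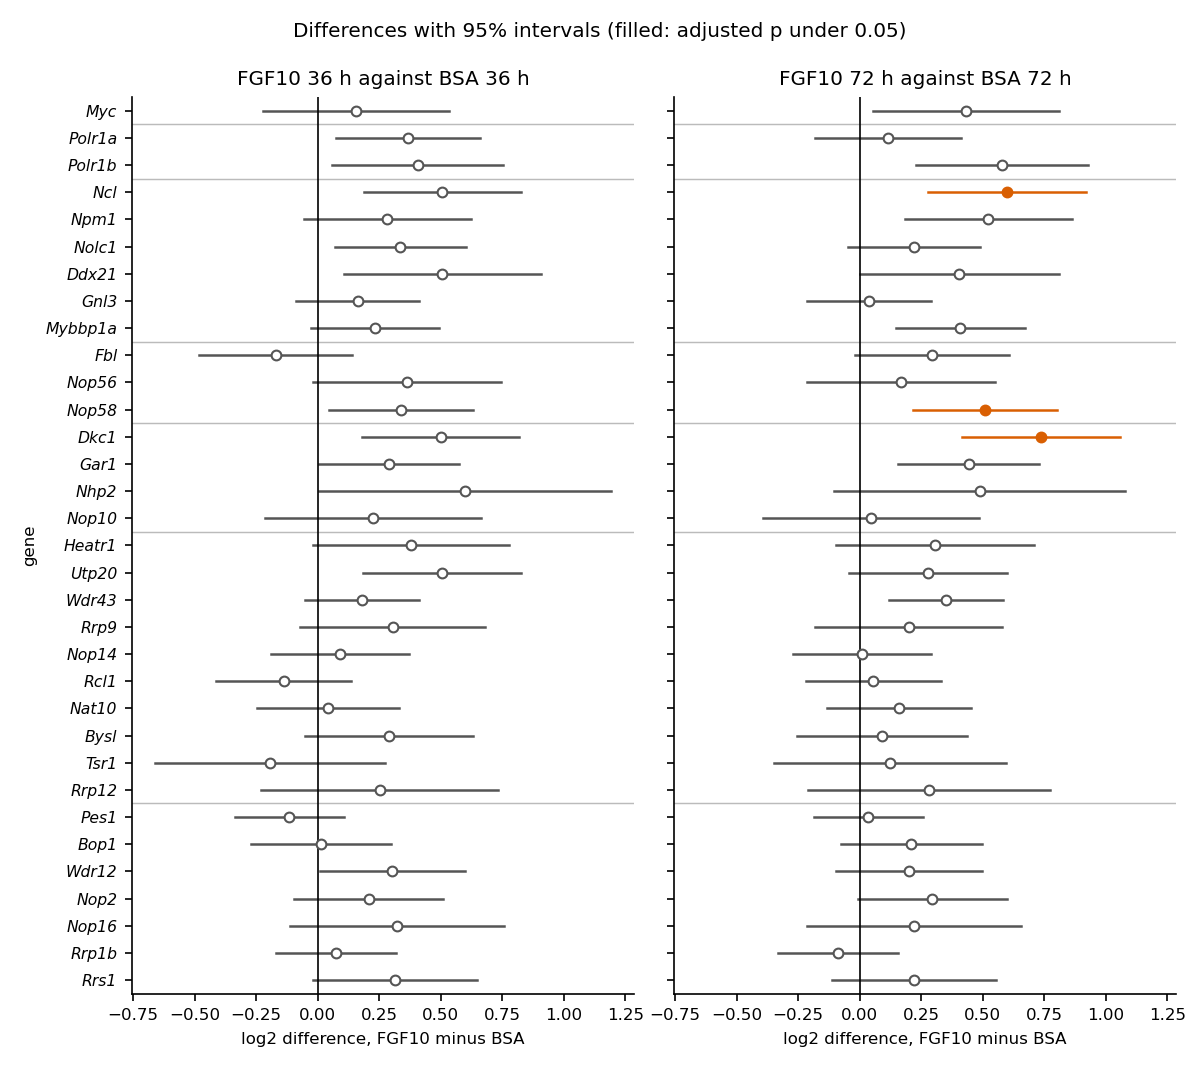
Log2 difference of FGF10 minus BSA (x axis) for each of the 33 genes (rows) at 36 h (left) and 72 h (right), with 95% intervals from the fit, filled orange where the adjusted p was under 0.05. At 36 h no gene is filled and 29 lie above 0, and at 72 h Ncl, Nop58 and Dkc1 are filled and 32 lie above 0.

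The intervals bound what these libraries could show. At 36 h the 95% interval of the log2 difference held 0 for 22 members, and at 72 h for 24, with a median width of 0.64 at both times. Pes1, a partner of Bop1 and Wdr12 in a large subunit assembly complex, differed by -0.12 ± 0.10 at 36 h and 0.03 ± 0.10 at 72 h. For Bop1 the difference was 0.01 ± 0.13 at 36 h and 0.21 ± 0.13 at 72 h. A difference that did not pass is not shown to be absent.

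The effect of FGF10 was not shown to change between the times. The difference of the FGF10 effect, 72 h minus 36 h, passed for 0 of 33 members and for 0% of all tested genes in either direction. At an unadjusted p under 0.05 there was 1 member, Fbl (0.46 ± 0.21), against 5.5% of all tested genes. DESeq2 called 0 members and 0.0994% of all genes it tested, and limma voom with sample weights called 0 members and 0% of all tested genes. The differences were positive for 17 members and negative for 16, with a median of 0.03. That split moved with single libraries: without FGF10 36 h replicate 4, 24 were positive with a median of 0.12, and without FGF10 72 h replicate 4, 14 were positive with a median of -0.11. With limma voom and sample weights, 23 were positive.

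**Figure D3:**
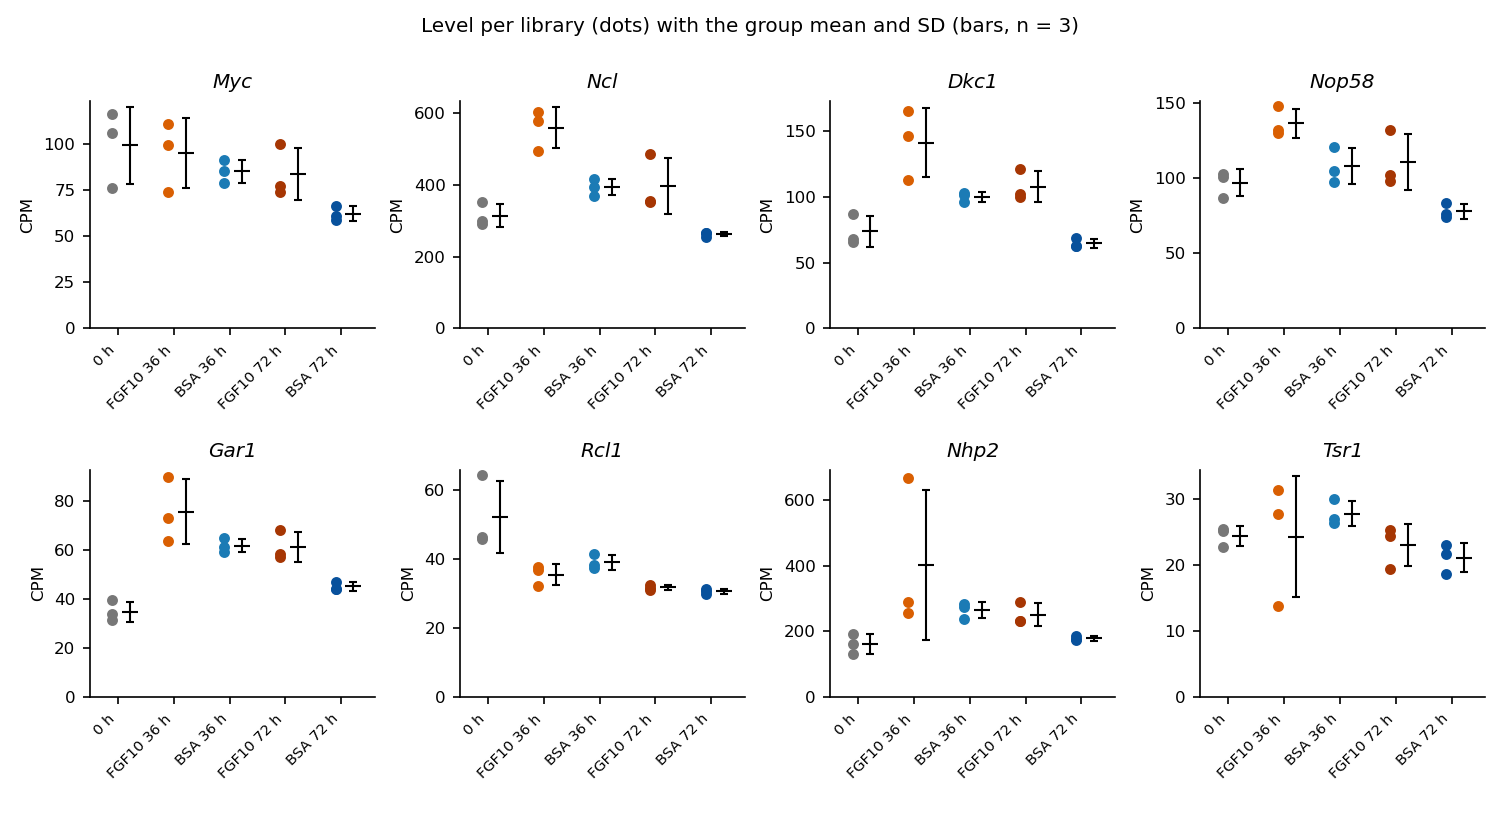
CPM (y axis, from 0) of 8 genes in each library (dots) by group, in order of time with FGF10 left of BSA, with the group mean and SD (n = 3) beside the dots. Ncl, Dkc1, Nop58 and Gar1 peak in FGF10 36 h, Rcl1 is highest and Myc spread widest at 0 h, and single FGF10 36 h libraries stand apart for Nhp2 (665 CPM) and Tsr1 (13.9 CPM).

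The comparisons with 0 h ask what the time in culture did. They share the 0 h libraries, so each is described by its own values and they are not independent of each other. At 0 h the immune markers summed to 1428 to 1851 CPM, against 77.7 to 205 CPM in FGF10 36 h, 150 to 215 CPM in BSA 36 h, 76.9 to 127 CPM in FGF10 72 h and 336 to 418 CPM in BSA 72 h. Of the 10 immune markers, 9 were counted in every 0 h library, and Cd3e was at 0 in every library of BSA 36 h and FGF10 72 h. Adipocyte markers summed to 16.4 to 24.8 CPM in FGF10 36 h and 65.9 to 553 CPM at 0 h, endothelial markers to 10.2 to 17.6 CPM in FGF10 36 h and 53.8 to 301 CPM at 0 h, and fibroblast markers to 160 to 234 CPM in FGF10 36 h and 483 to 894 CPM at 0 h. At 0 h, Fabp4 held 341.8 of the mean adipocyte sum of 358.9 CPM. Lpl, Plin1 and Cidec had lower means at 0 h than in FGF10 36 h. Cd74 (1214 CPM) and H2-Ab1 (315 CPM) held most of the mean immune sum of 1655 CPM at 0 h. Cd68 and Itgam had their lowest group means there. Postn held 329.7 of the mean fibroblast sum of 674.9 CPM at 0 h. Fbln1 was lower at 0 h (6.212 CPM) than in FGF10 36 h (20.52 CPM). So these sums do not speak for each marker. Proliferation genes summed to 1118 to 1360 CPM in FGF10 36 h and 91.6 to 908 CPM at 0 h. The part of these in the differences from 0 h was not tested.

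After 36 h with FGF10, 26 of the 33 members rose and 1 fell against 0 h, while 19.3% of all tested genes rose and 20.5% fell. The median log2 difference was 0.63, against 0.01 over all tested genes. Both RNA polymerase I subunits, all 6 nucleolar scaffold and regulator proteins, all 3 box C/D proteins, 3 of 4 box H/ACA proteins, 7 of 10 small subunit factors and 5 of 7 large subunit factors rose. Myc, Nop10, Wdr43, Tsr1, Pes1 and Rrp1b did not pass, and Rcl1 fell. Of the 27 calls, 17 held in all 24 alternative settings, and Polr1b, Mybbp1a, Fbl, Nop56, Nop58, Nop14, Rcl1, Nat10, Rrp12 and Nop16 were lost in at least 1. With only the compared groups in the fit, 18 rose and 0 fell.

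Among the polymerase subunits, the catalytic subunit Polr1a had 22.1, 22.5 and 23.4 CPM in FGF10 36 h and 15.8, 15.3 and 15.9 CPM at 0 h, and rose by 0.53 ± 0.14 (adjusted p = 0.00748). Polr1b rose by 0.48 ± 0.16 (adjusted p = 0.0315), but did not pass when replicate 1 or 2 of the 0 h group or replicate 1 or 4 of FGF10 36 h was left out, with log2 differences of 0.38 to 0.65 over all settings.

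Among the nucleolar proteins, the nucleostemin gene Gnl3, a GTPase of the nucleolus, had 134, 132 and 138 CPM in FGF10 36 h and 57.8, 69.6 and 74.6 CPM at 0 h. It rose by 1.00 ± 0.12 (adjusted p = 2.19e-05). Nolc1, a chaperone of snoRNPs, rose by 0.94 ± 0.13 (adjusted p = 6.15e-05) and the RNA helicase Ddx21 by 1.04 ± 0.19 (adjusted p = 0.00067). Ncl rose by 0.83, Npm1 by 0.81 and Mybbp1a by 0.45.

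Of the snoRNP proteins, Gar1 had 89.7, 73.0 and 63.6 CPM in FGF10 36 h and 31.3, 39.4 and 33.7 CPM at 0 h. The groups lay far apart, and the gene rose by 1.12 ± 0.14, a ratio of 2.17 (adjusted p = 2.48e-05). Nhp2 had the largest log2 difference of all members, 1.31 ± 0.28 (adjusted p = 0.00231), which was 0.74 without FGF10 36 h replicate 4 and still passed. Dkc1 rose by 0.94 ± 0.15 (adjusted p = 0.00026), Nop56 by 0.61 ± 0.18, Fbl by 0.58 ± 0.15 and Nop58 by 0.49 ± 0.14. Nop56 did not pass without 0 h replicate 4. Nop10, with 245, 207 and 405 CPM in FGF10 36 h and 262, 247 and 226 CPM at 0 h, overlapped and did not pass (0.22 ± 0.21, adjusted p = 0.416), and its difference was -0.12 without FGF10 36 h replicate 4.

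Of the small subunit factors, Bysl, bystin, had 33.4, 37.4 and 50.4 CPM in FGF10 36 h and 16.9, 17.1 and 17.5 CPM at 0 h, and rose by 1.23 ± 0.16 (adjusted p = 5.44e-05). Its exons overlap exons of the cyclin gene Ccnd3 on the opposite strand. Utp20 rose by 1.10 ± 0.15 (adjusted p = 8.04e-05), Heatr1 by 0.97 ± 0.19, Rrp9 by 0.89 ± 0.18 and Rrp12 by 0.83 ± 0.23, and the rRNA acetyltransferase Nat10 by 0.52 ± 0.14. Nop14 rose by 0.41 ± 0.13 (adjusted p = 0.0227) but did not pass without 0 h replicate 1 or FGF10 36 h replicate 4, with log2 differences of 0.30 and 0.28. Tsr1 had 27.6, 31.3 and 13.9 CPM in FGF10 36 h around 22.6, 25.5 and 25.2 CPM at 0 h, a difference of -0.01 ± 0.22 that was 0.27 without FGF10 36 h replicate 4.

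Rcl1, an RNA cyclase-like factor of early small subunit cleavage, was the member that fell. It had 37.7, 32.1 and 36.8 CPM in FGF10 36 h and 46.5, 64.3 and 46.0 CPM at 0 h. Every 0 h library was above every FGF10 36 h library, 0 h replicate 2 most of all. The log2 difference was -0.55 ± 0.13 (adjusted p = 0.00366), and Rcl1 was also called lower in BSA 36 h (-0.42, adjusted p = 0.0254), FGF10 72 h (-0.71, adjusted p = 0.000805) and BSA 72 h (-0.77, adjusted p = 0.000539). Both 72 h calls held in all 24 alternative settings. The FGF10 36 h call was lost with only the compared groups in the fit. The BSA 36 h call was lost in that fit, with no filter on low counts, and when replicate 2 of the 0 h group or replicate 2 or 3 of BSA 36 h was left out, with log2 differences of -0.50 to -0.24 over all settings.

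Of the large subunit factors, Wdr12 rose by 0.92 ± 0.14 (adjusted p = 0.000173), Rrs1 by 0.91 ± 0.16 (adjusted p = 0.000482), Nop16 by 0.70 ± 0.20, the rRNA methyltransferase Nop2 by 0.63 ± 0.14 and Bop1 by 0.57 ± 0.13. Pes1 had 56.3, 57.7 and 58.6 CPM in FGF10 36 h among 49.9, 58.6 and 54.5 CPM at 0 h, and differed by 0.08 ± 0.10 (adjusted p = 0.548). So of the 3 partners Pes1, Bop1 and Wdr12, Bop1 and Wdr12 rose and Pes1 did not pass, and a difference between the partners was not tested. Nop16 had a log2 difference of 0.32 without FGF10 36 h replicate 4 and still passed, and of 0.29 without it and 0 h replicate 1, where it did not pass.

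After 36 h with BSA, 16 members rose and 1 (Rcl1) fell against 0 h, while 12.7% of all tested genes rose and 14.4% fell. The median log2 difference was 0.44, against 0.01 over all tested genes. The members that rose were Npm1, Nolc1, Ddx21 and Gnl3 among the nucleolar proteins, Fbl, Dkc1 and Gar1 among the snoRNP proteins, Heatr1, Utp20, Rrp9, Nat10 and Bysl of the small subunit, and Bop1, Wdr12, Nop2 and Rrs1 of the large subunit. Bysl had 28.5, 35.0 and 35.6 CPM in BSA 36 h and 16.9, 17.1 and 17.5 CPM at 0 h (0.94 ± 0.16, adjusted p = 0.000671). Gnl3 had 108, 118 and 133 CPM in BSA 36 h (0.83 ± 0.12, adjusted p = 0.000143), Gar1 59.3, 61.3 and 64.6 CPM (0.83 ± 0.14, adjusted p = 0.000417) and Fbl 34.1, 32.6 and 34.02 CPM, against 18.7, 22.2 and 18.9 CPM at 0 h (0.76 ± 0.15, adjusted p = 0.00156). These BSA 36 h libraries were all above the 0 h libraries. Leaving out replicate 3 of BSA 36 h left 10 calls and leaving out its replicate 1 left 11, and 8 of the 17 calls held in all 24 settings.

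After 72 h with FGF10, 10 members rose and 1 (Rcl1) fell against 0 h, while 13.8% of all tested genes rose and 16% fell. Those that rose were Npm1, Nolc1, Gnl3, Fbl, Dkc1, Gar1, Utp20, Bysl, Wdr12 and Rrs1. Utp20 had 17.8, 15.97 and 19.5 CPM in FGF10 72 h and 9.25, 10.3 and 10.1 CPM at 0 h (0.85 ± 0.15, adjusted p = 0.000768), Gar1 had 57.2, 58.3 and 68.2 CPM in FGF10 72 h (0.82 ± 0.14, adjusted p = 0.000373), and Npm1 had 137, 121 and 131 CPM in FGF10 72 h and 89.9, 65.4 and 73.9 CPM at 0 h (0.76 ± 0.16, adjusted p = 0.00234). None of these overlapped with 0 h. The median over the members was 0.33, with 28 of 33 positive. Without FGF10 72 h replicate 4, the median was 0.18, 25 were positive and 5 members passed, and Fbl (adjusted p = 0.0468) passed in 10 of the 24 other settings.

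After 72 h with BSA, 3 members rose and 3 fell against 0 h, while 12.2% of all tested genes rose and 13% fell, so the members' shares in each direction, 3 of 33, were not above those of all genes. Gnl3 rose with 103, 98.6 and 106 CPM in BSA 72 h against 57.8, 69.6 and 74.6 CPM at 0 h (0.61 ± 0.12, adjusted p = 0.00159). Utp20 rose by 0.57 ± 0.15 (adjusted p = 0.0124), though not without BSA 72 h replicate 2_2, and Bysl by 0.49 ± 0.16 (adjusted p = 0.0385), though not when any BSA 72 h library, any 0 h library or FGF10 72 h replicate 3 was left out. Beside Myc and Rcl1, Wdr43, a small subunit factor, fell, with 51.4, 48.0 and 46.7 CPM in BSA 72 h against 54.5, 64.3 and 68.6 CPM at 0 h (-0.36 ± 0.11, adjusted p = 0.0254). It did not pass when replicate 2 or 4 of the 0 h group, or library 2_2 or 3 of BSA 72 h, was left out. The median over the members was 0.02, and -0.05 without 0 h replicate 1. Without BSA 72 h replicate 2_2, 3 members passed.

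**Figure D4:**
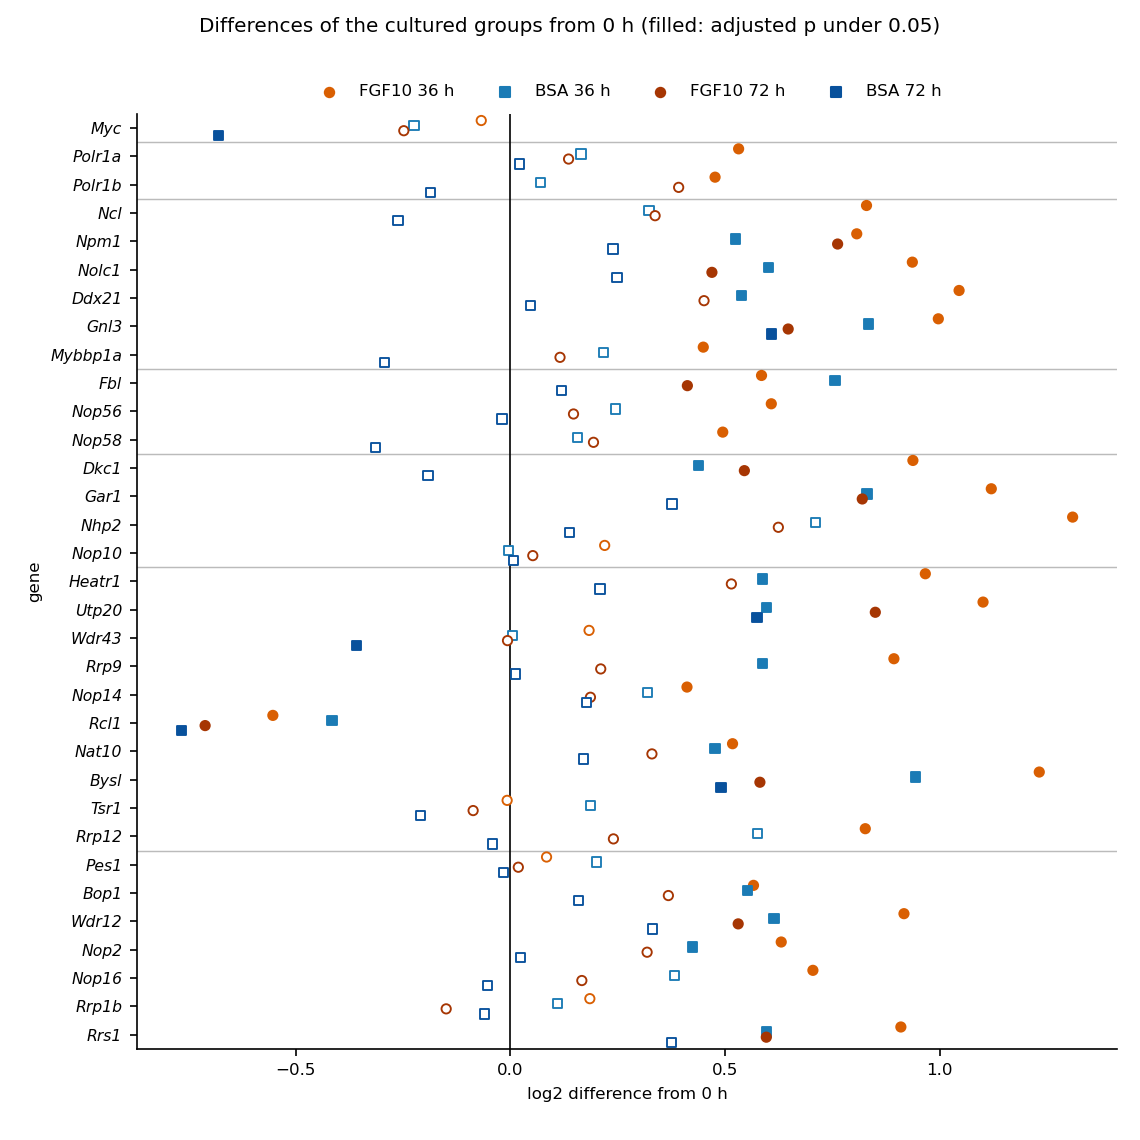
Log2 difference from 0 h (x axis) of each of the 33 genes (rows) in FGF10 36 h and FGF10 72 h (circles) and BSA 36 h and BSA 72 h (squares), filled where the adjusted p was under 0.05. Most genes are farthest right in FGF10 36 h and farthest left in BSA 72 h, and Rcl1 is to the left of 0 in all 4 groups.

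Between 36 h and 72 h the members were lower in both arms, without passing gene by gene. In FGF10 72 h against FGF10 36 h all 33 log2 differences were negative, with a median of -0.31 against -0.01 over all tested genes, and edgeR called 0 members (1.42% of all tested genes rose and 0.491% fell). At an unadjusted p under 0.05, 19 members were lower, against 8.3% of all tested genes, and 14 were lower without overlap of the libraries, against 9.9%. DESeq2 called 4 members lower (1.67% of all genes it tested) and limma voom with sample weights called 5 lower (2.18%). Without FGF10 72 h replicate 4, 3 members passed, without FGF10 36 h replicate 1, 2 passed, and without 0 h replicate 1 or BSA 36 h replicate 1, 1 passed. These counts describe the fits and are not read as a result about the members. Without FGF10 36 h replicate 4 the differences of Npm1 and Nop10 turned positive. Bysl had 21.6, 24.7 and 30.8 CPM in FGF10 72 h and 33.4, 37.4 and 50.4 CPM in FGF10 36 h (-0.65 ± 0.16, adjusted p = 0.0544), and Rrp9 had 31.9, 35.1 and 39.4 CPM in FGF10 72 h and 45.3, 48.6 and 76.9 CPM in FGF10 36 h (-0.68 ± 0.18, adjusted p = 0.0687). Neither gene's libraries overlapped between the times.

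In BSA 72 h against BSA 36 h, 32 of 33 log2 differences were negative, with Nop10 the exception at 0.01, and the median was -0.38 against -0.01 over all tested genes. EdgeR called 0 members (0.325% of all tested genes rose and 0.143% fell). At an unadjusted p under 0.05, 18 members were lower, against 8.28% of all tested genes, and 25 were lower without overlap, against 16.5%. DESeq2 called 4 lower (1.4% of all genes it tested) and limma voom with sample weights called 22 lower (8.05%). Without FGF10 36 h replicate 4, 8 members passed (1.91% of all tested genes fell), without 0 h replicate 1, 4 passed (1.86% fell), and without FGF10 36 h replicate 3, 1 passed, although none of these libraries belongs to these groups. Fbl had 21.4, 20.7 and 22.7 CPM in BSA 72 h and 34.1, 32.6 and 34.02 CPM in BSA 36 h (-0.64 ± 0.15, adjusted p = 0.0619), Dkc1 had 62.4, 62.8 and 68.9 CPM in BSA 72 h and 103, 101 and 96.0 CPM in BSA 36 h (-0.63 ± 0.15, adjusted p = 0.0668), and Mybbp1a had 53.8, 52.5 and 52.2 CPM in BSA 72 h and 75.2, 71.3 and 79.2 CPM in BSA 36 h (-0.51 ± 0.12, adjusted p = 0.0684). The groups were well apart for all 3.

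Other values moved with these comparisons. Summed over 12 proliferation genes, the level was 1118 to 1360 CPM in FGF10 36 h and 572 to 838 CPM in BSA 36 h, and 787 to 1185 CPM in FGF10 72 h and 337 to 349 CPM in BSA 72 h. All 12 had positive log2 differences between FGF10 and BSA at both times, with a median of 0.85 at 36 h and 1.52 at 72 h. All 12 were also higher without overlap of the libraries at both times, against 9.88% and 21.9% of all tested genes. By the edgeR test, 0 of the 12 passed at either time. Adipocyte markers summed to 11.3 to 74.8 CPM in FGF10 72 h and 427 to 434 CPM in BSA 72 h, where all 10 were counted in every library, against 3 of 10 in FGF10 72 h. Fibroblast markers summed to 218 to 491 CPM in FGF10 72 h and 655 to 771 CPM in BSA 72 h. Most of this was Postn, with a mean of 333.2 CPM in FGF10 72 h and 629.4 CPM in BSA 72 h, while Fbln1 and Pdgfra had higher means in FGF10 72 h. Endothelial markers summed to 7.07 to 22.2 CPM in FGF10 72 h and 64.6 to 170 CPM in BSA 72 h. Epithelial markers summed to 23400 to 27850 CPM in FGF10 72 h and 13080 to 14000 CPM in BSA 72 h. Most of that epithelial difference was in Krt14, with a mean of 11960 CPM in FGF10 72 h and 3666 CPM in BSA 72 h. Krt5 (3044 and 1286 CPM) and Krt8 (3462 and 2377 CPM) were also higher with FGF10. Epcam (1907 and 1557 CPM), Krt18 (4750 and 4544 CPM) and Cdh1 (272 and 209 CPM) differed less. The part of all these genes in the differences of the members at 72 h was not tested.

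A further list held 131 tested ribosome biogenesis genes outside the members. Against 0 h, 64 rose and 2 fell in FGF10 36 h, 37 rose and 2 fell in BSA 36 h, 19 rose and 1 fell in FGF10 72 h, and 7 rose and 6 fell in BSA 72 h. Over all tested genes, 19.3%, 12.7%, 13.8% and 12.2% rose in that order, and 20.5%, 14.4%, 16% and 13% fell. The 19 of 131 in FGF10 72 h were near the share of all genes, and the 7 in BSA 72 h were below it. Their median log2 difference in FGF10 36 h against 0 h was 0.42, beside 0.63 for the members. Taf1d, a factor that loads RNA polymerase I onto its promoter, had 69.6, 72.2 and 64.5 CPM in FGF10 36 h and 32.3, 32.6 and 29.6 CPM at 0 h (1.13 ± 0.13, adjusted p = 1.4e-05), and Eif6, which keeps the subunits apart until assembly is complete, had 437, 431 and 763 CPM in FGF10 36 h and 206, 233 and 195 CPM at 0 h (1.36 ± 0.20, adjusted p = 0.000109). Rrp15 (1.17 ± 0.18) and Rbm28 (0.80 ± 0.12) rose as well. Between FGF10 and BSA, 0 of the 131 passed at 36 h and 1 rose at 72 h, where 0.954% and 3.01% of all tested genes rose. The 1 gene was Tex10, with 36.7, 36.8 and 44.4 CPM in FGF10 72 h and 28.5, 27.5 and 27.7 CPM in BSA 72 h (0.50 ± 0.13, adjusted p = 0.0384). Exosc2 (0.55 ± 0.16, adjusted p = 0.0512), Snu13 (0.41 ± 0.13) and Dis3 (0.48 ± 0.15) were next by p at 72 h, and at 36 h Rrp15 (0.60 ± 0.18, adjusted p = 0.0883), Nvl (0.34 ± 0.11), Snu13 (0.40 ± 0.13) and Exosc8 (0.86 ± 0.28). None of these passed. In FGF10 72 h against FGF10 36 h, 3 of the 131 fell, against 0.491% of all tested genes. In BSA 72 h against BSA 36 h, 0 passed. The E-box stood in 13 of 113 matched genes of this list (11.5%) and the ETS core in 57 (50.4%).

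Known Myc targets outside the nucleolus were counted as a further list. Of 39 tested, 30 rose and 2 fell in FGF10 36 h against 0 h, 16 rose and 1 fell in BSA 36 h, 14 rose and 1 fell in FGF10 72 h, and 4 rose and 2 fell in BSA 72 h. Over all tested genes, 19.3%, 12.7%, 13.8% and 12.2% rose in that order. The 4 of 39 in BSA 72 h were not above that share. The transferrin receptor gene Tfrc had 53.8, 44.4 and 37.6 CPM in FGF10 36 h and 8.03, 8.61 and 7.70 CPM at 0 h (2.48 ± 0.21, adjusted p = 1.39e-06). Its mean was also above 0 h in the other cultured groups, with 37.8 CPM in BSA 36 h, 37.5 CPM in FGF10 72 h and 37.0 CPM in BSA 72 h. The polyamine enzyme gene Odc1 had 75.97, 80.2 and 80.3 CPM in FGF10 36 h and 30.2, 23.3 and 25.1 CPM at 0 h (1.59 ± 0.16, adjusted p = 4.58e-06). Between FGF10 and BSA, 0 passed at 36 h and 7 rose at 72 h, where 3.01% of all tested genes rose. Those with the smallest p at 72 h were the mitochondrial chaperone Hspd1 (168, 176 and 222 CPM in FGF10 72 h, 134, 120 and 113 CPM in BSA 72 h, 0.63 ± 0.13, adjusted p = 0.0137), the translation factor Eif5a (0.82 ± 0.20, adjusted p = 0.0259) and the cell cycle kinase Cdk4 (0.61 ± 0.15, adjusted p = 0.0266). At 36 h the smallest were Hspd1 (0.48 ± 0.13, adjusted p = 0.0641), the D-type cyclin Ccnd2 (1.11 ± 0.32, adjusted p = 0.09) and Set (0.62 ± 0.19, adjusted p = 0.0978). None of these 3 passed.

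Of 76 genes for cytosolic ribosomal proteins, the products that the assembly factors build in, 18 rose and 4 fell in FGF10 36 h against 0 h, with a median log2 difference of 0.06. In BSA 36 h 8 rose and 1 fell, in FGF10 72 h 4 rose and 0 fell, and in BSA 72 h 2 rose and 16 fell, with a median of -0.29. Over all tested genes, 19.3% rose in FGF10 36 h, 12.7% in BSA 36 h, 13.8% in FGF10 72 h and 12.2% in BSA 72 h, where 13% fell. The numbers that rose in BSA 36 h, FGF10 72 h and BSA 72 h were not above these shares. Between FGF10 and BSA, 0 passed at 36 h and 4 rose at 72 h, where 3.01% of all tested genes rose. The median log2 difference was 0.13 at 36 h and 0.27 at 72 h, beside 0.29 and 0.22 for the members. At 72 h, 65 of the 76 were positive and 39 were higher without overlap, against 21.9% of all tested genes. For 72 h against 36 h the median was -0.14 with FGF10 and -0.31 with BSA.

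**Figure D5:**
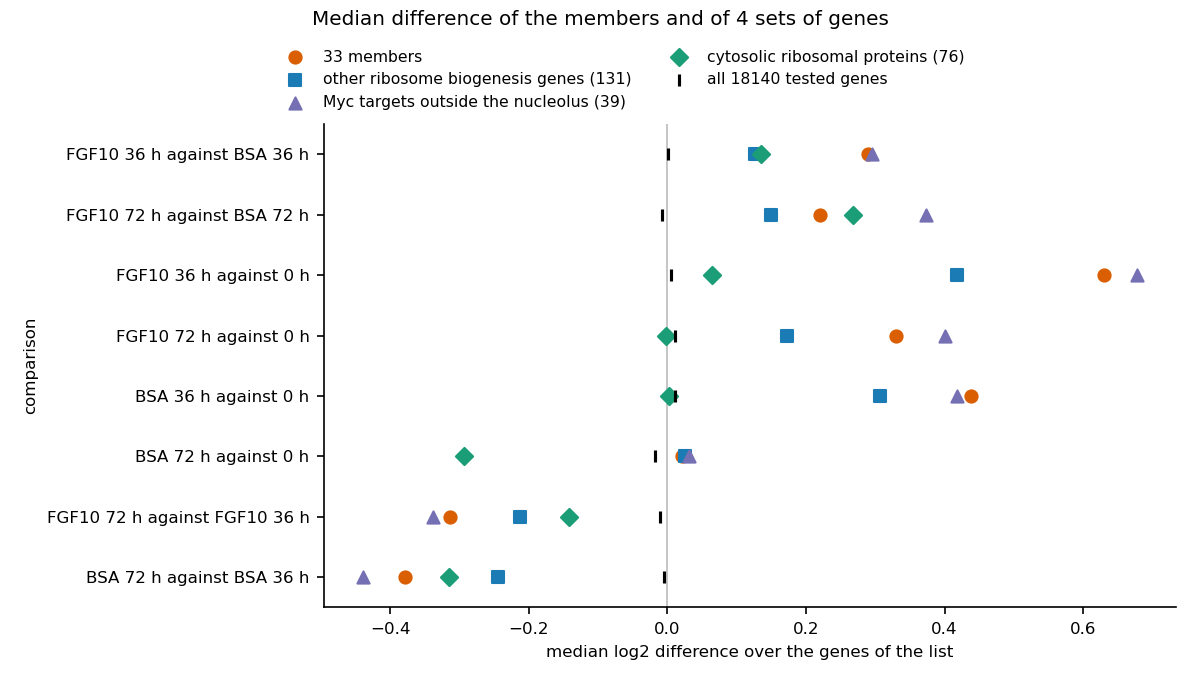
Median log2 difference (x axis) in 8 comparisons (rows) for the 33 genes, 3 further gene lists and all 18140 tested genes (black ticks). For FGF10 against BSA, the medians of the 33 genes and of all 3 further lists lie to the right of all genes. For 72 h against 36 h they lie to the left. For the 36 h groups against 0 h, the 33 genes, 131 other ribosome biogenesis genes and 39 Myc targets lie to the right. The 76 ribosomal protein genes are near 0 there, and at -0.29 for BSA 72 h against 0 h.

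The partners and antagonists of Myc were mostly not called. Of 11 tested, 0 passed between FGF10 and BSA at either time. Max, the partner that Myc needs to bind DNA, had 12.7, 15.1 and 5.88 CPM in FGF10 36 h and 9.69, 11.7 and 14.3 CPM in BSA 36 h, and 11.9, 12.1 and 6.34 CPM in FGF10 72 h and 22.4, 25.9 and 11.4 CPM in BSA 72 h (-0.98 ± 0.41 at 72 h, adjusted p = 0.166). Mxd1, which competes with Myc for Max, had 10.97, 10.6 and 10.5 CPM in FGF10 72 h and 16.9, 15.7 and 18.1 CPM in BSA 72 h, without overlap (-0.66 ± 0.24, adjusted p = 0.116). Against 0 h, Mlx rose in FGF10 36 h (0.45 ± 0.13, adjusted p = 0.0158) and BSA 36 h (0.60 ± 0.13, adjusted p = 0.00399), Mxd1 fell in FGF10 36 h (-0.73 ± 0.25, adjusted p = 0.0293), the repressor Mnt rose in BSA 72 h (0.74 ± 0.20, adjusted p = 0.0125), and Mycn, at most 1.44 CPM in any library, fell in BSA 36 h (-1.39 ± 0.49, adjusted p = 0.0464). Mycl, a paralog of Myc, ranged from 18.6 to 160 CPM within the 0 h group. It had 32.4, 66.6 and 32.4 CPM in FGF10 36 h and 80.1, 188 and 156 CPM in BSA 36 h, without overlap (-1.69 ± 0.62, adjusted p = 0.168). At 72 h it had 74.1, 105 and 65.7 CPM in FGF10 72 h and 137, 137 and 160 CPM in BSA 72 h (-0.82 ± 0.60, adjusted p = 0.454). Mxd3, Mxd4, Mxi1, Mga and Zbtb17 passed in none of the 9 comparisons, with log2 differences between FGF10 and BSA at 72 h of 0.89, -0.34, -0.29, -0.14 and -0.30 in that order.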

How the data were processed

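RNA of 15 libraries was sequenced after a stranded mRNA kit, and the authors deposited 1 table of raw counts per gene, made with featureCounts 2.0.1 per the file headers, without use of strand. The submitters' processing notes name cutadapt 1.9.1, HISAT2 2.2.1, FastQC, HTSeq, DESeq2 and GRCm39. All sample columns were used (0 unused). Low genes were dropped by filterByExpr of edgeR at a minimum count of 10 and a minimum total of 15, leaving 18140 after 36316 were removed, and libraries were scaled with TMM. The main test was edgeR's quasi-likelihood test (edgeR 4.0.16, R 4.3.3) on all 5 groups in 1 fit, with 9 contrasts and Benjamini-Hochberg adjustment over all 18140 genes in each contrast, with a threshold of 0.05. The scripts were tested on simulated data. The settings varied were the scaling (DESeq2 size factors), the filter (none, or a minimum of 10 counts in 3 or more libraries), a replicate block, only the compared groups, the DESeq2 1.42.0 Wald test, limma 3.58.1 voom with sample weights, a sum of libraries 2_1 and 2_2 of BSA 72 h, each library left out, and, added after seeing the data, 0 h replicate 1 and FGF10 36 h replicate 4 both left out. The mean chi-square between 2_1 and 2_2 was 4.50, the lowest of all 15 within-group pairs (10.1 and 12.4 for the other BSA 72 h pairs, 19.0 or more elsewhere). It is above sampling noise, so they were not the same counts deposited again, and they were kept apart. It does not tell whether they share a culture or a library. Members and gene lists were chosen with earlier results of these data known, so their counts are descriptions. All 33 members were named, with the genes of smallest p in the further lists (4 per comparison for ribosome biogenesis, 3 for Myc targets) and every tested Myc partner. Promoter windows came from RefSeq on GRCm38.p6 and were matched by symbol.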

Additional observations from a re-analysis of the deposited data

How the results depend on the processing

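The count of the 33 members called was recomputed under 24 alternatives, among them the fit without both 0 h replicate 1 and FGF10 36 h replicate 4, which was chosen after seeing the data. No direction of a called member reversed, and of 7128 values of single members under an alternative 6637 kept their call and direction. For FGF10 against BSA at 36 h, 0 members were called, 3 with DESeq2, 3 with limma voom, and 0 to 1 with a library left out. For FGF10 against BSA at 72 h, 3 were called, 12 with only the compared groups in the fit (15.2% of all genes rose in that fit), 8 with DESeq2, 12 with limma voom, 0 with libraries 2_1 and 2_2 of BSA 72 h taken as a sum, 11 without both named libraries (9.78% of all genes rose), and 0 to 9 with a library left out. Against 0 h, FGF10 36 h had 27 calls (25 to 27 with a library left out, 18 with only the compared groups, 22 without both named libraries and 24 with limma voom), FGF10 72 h 11 (5 to 15), BSA 36 h 17 (10 to 20, and 11 with only the compared groups) and BSA 72 h 6 (3 to 8). For FGF10 72 h against FGF10 36 h, 0 were called, 2 with no filter on low counts, 4 with DESeq2, 5 with limma voom, and 0 to 3 with a library left out. For BSA 72 h against BSA 36 h, 0 were called, 1 with no filter, 12 with only the compared groups (4.39% of all genes fell), 4 with DESeq2, 22 with limma voom, 12 without both named libraries (5.87% fell), and 0 to 8 with a library left out. The change of the FGF10 effect had 0 calls throughout. The number of all tested genes called also moved with the setting. For FGF10 against BSA at 72 h it was 1087 of 18140 in the main fit and 5025 of 16881 with only the compared groups. The member counts under a setting therefore describe that fit and are not read as a result about the members. The cause of these shifts was not tested.

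The labels do not say that replicate numbers mark a shared source, and not every pair correlated. Over 21 pairs with the same number the correlation of deviations had a median of 0.0932 and a range of -0.162 to 0.525, with 10 over 0.1, and over 69 pairs with different numbers the median was -0.0253, with 13 over 0.1. The highest values were 0.525 for replicate 1 and 0.326 for replicate 3 of FGF10 36 h and BSA 36 h. With the replicate block, the calls were 0 and 2 for FGF10 against BSA at 36 h and 72 h, 0 for the change of that effect, 27, 11, 21 and 6 for FGF10 36 h, FGF10 72 h, BSA 36 h and BSA 72 h against 0 h, 3 for FGF10 72 h against FGF10 36 h and 0 for BSA 72 h against BSA 36 h. Between FGF10 and BSA in that fit, 170 of 18140 tested genes rose at 36 h and 535 at 72 h. The other counts with the block describe the setting and are not read as a result about the members. With 3 libraries a group and 10 residual degrees of freedom, small differences of single members were not resolved.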
